A study of Homo sapiens with 6 samples.

Results

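Untreated THP-1 cultures were compared between 24 and 48 h, as the log2 value of each gene in the control library of 48 h minus that of 24 h. THP-1 is an established human monocytic leukaemia line, grown in suspension and used as a model of monocytes. These 2 control libraries are 2 of the 6 RNA-seq libraries of the series. The other 4 are the control library of 6 h and the libraries of cells given recombinant human interleukin-6 (IL-6) for 6, 24 and 48 h. Each condition had 1 library, so no control difference carries a replicate error, and the labels name no vehicle, medium change or cell density for the controls. Protein-coding rows with a value in all 6 libraries numbered 13028 of 60325 rows, and 7219 of them passed a level filter and were counted.

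Cells of a growing suspension culture divide, use up nutrients and release products until the medium is renewed. Several responses to such conditions are well described. Scarcity of amino acids or stress in the endoplasmic reticulum leads to phosphorylation of eIF2α and translation of the transcription factor ATF4, which induces genes of amino acid synthesis and transport (the integrated stress response). Low oxygen stabilises hypoxia-inducible factors, which induce glycolytic enzymes and BNIP3. Low membrane sterol activates SREBP2 and with it the enzymes of cholesterol synthesis, and transcripts of mitotic genes accumulate in G2 and M phase.

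All values below are on a log2 scale, where a difference of 1 is 2-fold, unless they are called levels. The deposited values are centred on each gene, so they give differences between libraries and no expression level. A level in an arbitrary unit was recovered for most genes from the rounding of the values, up to 100, and genes without a recovered level were treated as high. The filter kept genes whose 2 control libraries averaged a level of 10 or more, and 1822 genes without a recovered level were kept too. A gene under 10 in 1 of the 2 libraries could thus pass through the other. The number of genes with a value ranged from 22000 to 23108 over the 6 libraries, and the depth in reads is unknown. Of the 9 monocytic genes chosen to check the label (CD33, CSF1R, ITGAM, SPI1, LYZ, CD68, FCER1G, TYROBP and MPO), 9 had a value in all 6 libraries. Of markers of other cells, 2 of 14 for T and NK cells, 4 of 9 for B cells, 2 of 11 for erythroid cells and platelets and 4 of 15 for epithelial cells and fibroblasts had one. Of the 9 monocytic genes 7 passed the level filter. ITGAM and MPO did not, with mean levels of 3.83 and 4.81 over the 2 control libraries. Of the other markers, 1 for T and NK cells and 1 for erythroid cells and platelets passed it. For B cells 0 passed, and for epithelial cells and fibroblasts 0.

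Few genes differed strongly between the 2 control libraries. At least 2-fold apart were 51 of 7219 genes (0.706%), of which 18 were higher (0.249%) and 33 lower (0.457%) at 48 h. With the library medians made equal the split was 23 higher and 26 lower. Most of the 18 higher genes had a 24 h level under 10 and passed the filter through the 48 h library. NDUFA4L2 is an example, with 3.79 and 21.0. Some of the 33 lower genes passed through the 24 h library, as PNCK did with 19.5 and 2.77. The median difference over the 7219 genes was -0.05 with an SD over genes of 0.29, and 92.3% of genes lay within 0.5 of 0. In the controls 3011 genes were positive and 4208 negative, and in IL-6 3583 and 3636. The highest was NDUFA4L2, a known target of hypoxia-inducible factor. Amino acid synthesis and stress response genes (ASNS, CHAC1, SESN2, PSAT1 and PHGDH) and TNF were also among the highest. The creatine transporter gene SLC6A8, hypoxia-response genes (ALDOC, BNIP3, P4HA1) and mitotic genes (KIF20A, HMMR, PTTG1) were among the lowest. From 6 to 24 h, a comparison that uses the same 24 h control library, 133 of 7109 genes (1.87%) were at least 2-fold apart, 123 of them higher (1.73%) and 10 lower (0.141%).

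The IL-6 libraries of 24 and 48 h share no library with the control difference and were set beside it. Of the 51 genes, 47 had the same sign in IL-6, 17 of 18 for the higher and 30 of 33 for the lower genes. At least 2-fold in the same direction in IL-6 were 18, and in 42 the IL-6 difference was smaller. Over all 7219 genes 56.5% had the same sign, and 147 (2.04%) were at least 2-fold apart in IL-6, 50 higher (0.693%) and 97 lower (1.34%). Across genes the control and IL-6 differences had a Pearson r of 0.29 and a Spearman rho of 0.22, given as a description because genes are not independent replicates. Members of the 51 were chosen for a large control difference, so a smaller difference in another pair of libraries is not a result about IL-6.

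**Figure D1:**
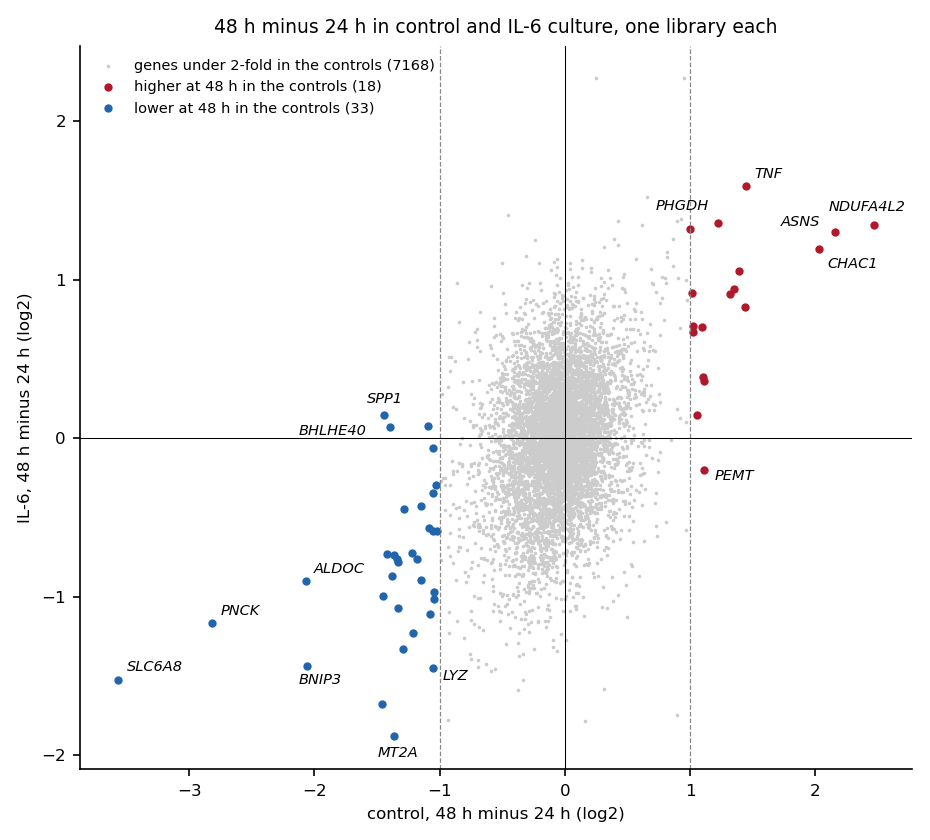
Log2 difference of 48 h minus 24 h in the control libraries (x axis) and in the IL-6 libraries (y axis), one point per gene, for the 7219 genes counted. Red points are the 18 genes at least 2-fold higher and blue points the 33 at least 2-fold lower in the controls, and dashed lines mark 2-fold; 47 of the 51 have the same sign in both.

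An error could be estimated only over both agents. An additive limma model of time point and agent over the 6 libraries, with 2 residual degrees of freedom, gave the mean of the control and the IL-6 difference. For 48 h against 24 h it called 64 of 11344 genes (0.564%) at a limma adjusted p under 0.05, 18 higher (0.159%) and 46 lower (0.406%). At an unadjusted p under 0.05 there were 531 higher and 813 lower. Each of the 64 had the same direction in both agents, which the test favours. Of the 51 genes above, 20 were called, 7 higher and 13 lower. The 51 were chosen by the control difference, which is part of the limma estimate, so these calls are no independent test of them. Below, "rose" and "fell" are used only for genes called in this model, with the limma estimate ± its SE over both agents.

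The number of calls depended on single libraries and on the variance model. Leaving out the IL-6 library of 24 h left 6 genes higher and 6 lower, and leaving out the IL-6 library of 48 h left 9 and 57. Leaving out the control library of 24 h left 13 and 30, leaving out that of 48 h gave 102 and 319, and leaving out either library of 6 h gave 101 and 191. Without a trend of variance on level limma called 0 genes, with 481 higher and 581 lower at an unadjusted p under 0.05. Called in the full model and also without the IL-6 library of 24 h were 11 genes, namely ASNS, CHAC1, EIF4EBP1, NDUFA4L2, PHGDH, PSAT1, GBE1, HMMR, LYZ, MT2A and PTTG1. Of the 64, 27 were also called without the control library of 24 h, 36 without the IL-6 library of 48 h and 62 without the control library of 48 h. ASNS, PHGDH, HMMR, LYZ and MT2A were called whichever single library was left out. Leaving out either library of 6 h gave the same fit, so these are not separate checks. That fit also pooled the variance over genes more strongly than the full model. Without the control library of 24 or 48 h, a fit no longer holds the control difference of 48 h minus 24 h. A call there is thus no check of the control difference. The labels do not say whether each library was a culture of its own, so no spread between cultures may be included. The error of the additive model comes from how far the time courses of the 2 agents differ. An SE thus also holds any IL-6 effect that changes with time. CD14, at 0.25 in the controls and 2.27 in IL-6, had an SE of 0.97, and SLC6A8, at -3.57 and -1.52, had 0.43. A gene without a call may therefore be one with a gap between the agents.

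**Figure D2:**
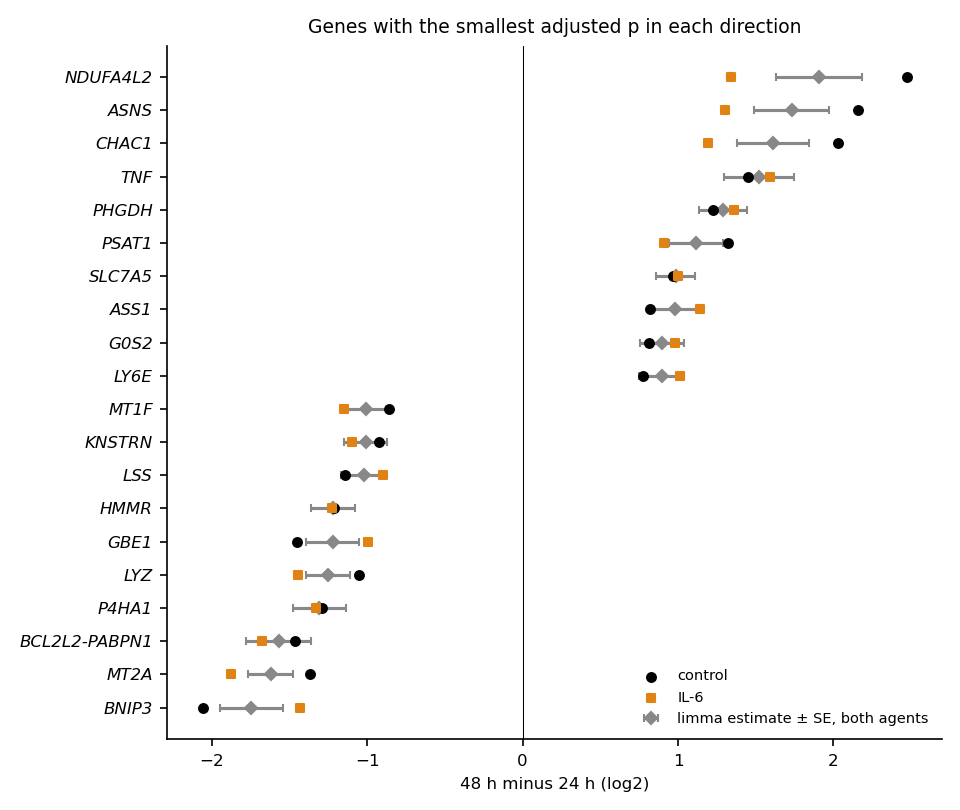
The 10 genes with the smallest adjusted p in each direction, with the log2 difference of 48 h minus 24 h in the control libraries (black circles), in the IL-6 libraries (orange squares) and the limma estimate over both with its SE (grey diamonds and bars). Control values run from -2.06 for BNIP3 to 2.47 for NDUFA4L2.

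Genes of amino acid synthesis, transport and the ATF4 response were higher at 48 h. ASNS (ENSG00000070669.17), which encodes asparagine synthetase and lies on chromosome 7 from 97851677 to 97872542, had levels of 10.9, 13.6 and 60.9 in the control libraries of 6, 24 and 48 h. In the IL-6 libraries of 24 and 48 h its levels were 36.6 and 90.2. Both 48 h libraries were the highest of their agent, and the step after 24 h was larger than the step before it in the controls. The control difference was 2.16 and the IL-6 difference 1.30, and over both agents ASNS rose by 1.73 ± 0.24 (limma adjusted p = 0.0140). CHAC1 (ENSG00000128965.13, chromosome 15 from 40952962 to 40956512), whose enzyme degrades glutathione, had control levels of 3.84, 7.66 and 31.3, a control difference of 2.03 and an IL-6 difference of 1.19. It rose by 1.61 ± 0.23 (limma adjusted p = 0.0144). The annotation places a long non-coding gene over 20855 bases of ASNS on the same strand, and the reads of both cannot be told apart.

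The list of 28 integrated stress and amino acid response genes had 24 members past the level filter. Of these 5 were at least 2-fold higher in the controls and 0 lower, and 20 had a positive difference. Among all 7219 genes 0.249% were at least 2-fold higher and 3011 positive. The list's median was 0.51 in the controls and 0.61 in IL-6, beside -0.05 and -0.0048 over all genes. Of 27 members tested, limma called 6 higher and 0 lower, a count that was 4 without the IL-6 library of 24 h, 3 without the control library of 24 h, 11 without that of 48 h and 10 without either library of 6 h. The first steps of serine synthesis were among them. PHGDH, phosphoglycerate dehydrogenase, rose by 1.29 ± 0.15 (limma adjusted p = 0.00684), with 1.22 in the controls and 1.36 in IL-6. PSAT1, phosphoserine aminotransferase, rose by 1.11 ± 0.17 (limma adjusted p = 0.0178), with 1.32 and 0.91. The 2 chains of the large neutral amino acid transporter also rose, SLC7A5 (LAT1) by 0.98 ± 0.13 and SLC3A2 (4F2hc) by 0.71 ± 0.13.

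SESN2, which encodes the leucine sensor sestrin 2, was 1.44 higher in the controls, from a level of 5.45 to 14.7, and 0.82 higher in IL-6 without a call. PCK2, mitochondrial phosphoenolpyruvate carboxykinase, was 0.86 higher in the controls and 1.25 in IL-6, and ALDH1L2 of mitochondrial folate metabolism 0.80 and 0.74. Both missed the limma threshold. ATF4 itself was 0.72 higher in the controls and 0.55 in IL-6, without a call (limma adjusted p = 0.0643). Its pseudokinase target TRIB3 stood at 0.42 in the controls, CEBPB at 0.40 and NUPR1 at 0.19, and none of the 3 was called. DDIT3 (CHOP) stood at -0.02, CEBPG at 0.05 and PPP1R15A, which directs dephosphorylation of eIF2α, at -0.26, and ATF5 was the lowest member at -0.31. EIF4EBP1, an inhibitor of cap-dependent translation outside this list, rose by 0.90 ± 0.15 (limma adjusted p = 0.0223), with 1.10 in the controls. ASS1, argininosuccinate synthase, was the gene of arginine synthesis among the 10 smallest p-values and rose by 0.98 ± 0.15 (limma adjusted p = 0.0178), with 0.82 in the controls.

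The promoters of ASNS and CHAC1 are shown because these were the list members with the largest differences. Each sequence is the 250 bases before the RefSeq start of the gene (GRCh38.p14), read 5′ to 3′ on the gene's strand, with matches to TGATGNAA on either strand in capitals. This is the core of the C/EBP-ATF response element that ATF4 dimers are known to bind.
ASNS, chr7:97872409-97872658, minus strand: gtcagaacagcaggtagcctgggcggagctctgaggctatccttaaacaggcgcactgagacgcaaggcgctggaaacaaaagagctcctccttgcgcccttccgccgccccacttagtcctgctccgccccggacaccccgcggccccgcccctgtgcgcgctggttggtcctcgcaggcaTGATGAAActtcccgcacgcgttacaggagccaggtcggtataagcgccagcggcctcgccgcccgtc
CHAC1, chr15:40953221-40953470, plus strand: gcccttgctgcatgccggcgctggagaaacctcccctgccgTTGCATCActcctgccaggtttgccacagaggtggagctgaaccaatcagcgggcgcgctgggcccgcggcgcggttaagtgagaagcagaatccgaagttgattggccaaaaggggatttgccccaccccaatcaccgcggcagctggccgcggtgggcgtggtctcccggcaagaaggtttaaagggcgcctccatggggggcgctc
The match in ASNS begins 68 bases and that in CHAC1 209 bases before the start. Of 19 members of the list matched to a promoter these 2 held the letters (10.5%), as did 3.19% of 27305 RefSeq promoter windows of this length. A match is a stretch of letters and was not measured as a binding site.

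**Figure D3:**
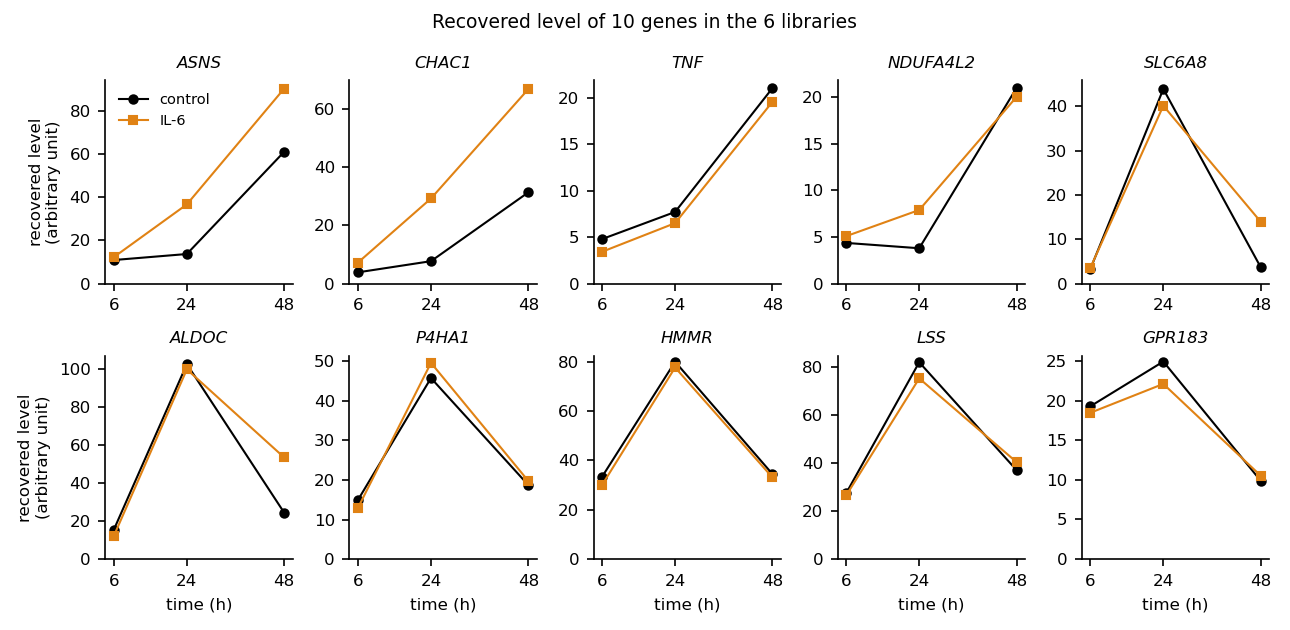
Recovered level in an arbitrary unit (y axis, from 0, scaled per gene) against time in culture (x axis) for 10 genes, with control libraries in black circles and IL-6 libraries in orange squares, 1 library per point. ASNS, CHAC1, TNF and NDUFA4L2 were highest at 48 h, and SLC6A8, ALDOC, P4HA1, HMMR, LSS and GPR183 at 24 h, in both agents.

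Other genes were higher at 48 h outside the amino acid response. NDUFA4L2, a mitochondrial protein gene known as a target of hypoxia-inducible factor, had the highest difference of all counted genes. Its control levels were 4.36, 3.79 and 21.0 at 6, 24 and 48 h, and its IL-6 levels at 24 and 48 h were 7.90 and 20.1. NDUFA4L2 rose by 1.91 ± 0.28 (limma adjusted p = 0.0144), with 2.47 in the controls and 1.34 in IL-6. TNF (ENSG00000232810.4, chromosome 6 from 31575565 to 31578336), the gene of tumour necrosis factor, had control levels of 4.79, 7.71 and 21.0 and IL-6 levels of 6.50 and 19.6 at 24 and 48 h. The 2 libraries of 48 h were alike and both above those of 24 h, with differences of 1.45 and 1.59, and TNF rose by 1.52 ± 0.22 (limma adjusted p = 0.0144). The call was lost without either 24 h library or without the IL-6 library of 48 h. The other 5 inflammatory cytokine and chemokine genes past the filter lay between -0.10 for TNFSF10 and 0.43 for IL18 in the controls.

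Of 15 interferon-stimulated genes past the level filter, 1 was at least 2-fold higher and 0 lower, and 11 were positive, with a median of 0.22 in the controls and 0.36 in IL-6. Among all 7219 genes 0.249% were at least 2-fold higher and 3011 positive in the controls. The list member past 2-fold was MX1, a dynamin-like GTPase gene of antiviral defence, with control levels of 6.01, 7.04 and 18.4. Its difference was 1.39 in the controls and 1.05 in IL-6, and it was not called (limma adjusted p = 0.106). ISG15, the ubiquitin-like modifier, stood at 0.54 and XAF1 at 0.54, while STAT2 stood at -0.27. Limma called 0 of 32 tested members. GP9, a platelet glycoprotein gene, went from a level of 6.54 to 14.1. The summed level of the erythroid and platelet markers with a value, GP9 and ITGA2B, went from 6.93 to 15.03 and was mostly that of GP9. The summed levels of B cell markers were 6.90 and 7.44, those of epithelial and fibroblast markers 9.97 and 6.67, and those of the T and NK cell markers with a level 1.23 and 0.71. Of the 2 T and NK cell markers with a value, 1 had no recovered level, was treated as high and is not in this sum. Its control difference was 0.09. The part of other cell types in these differences was not tested. In bulk RNA fewer cells of a kind and less RNA per cell cannot be told apart.

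The gene furthest down was SLC6A8 (ENSG00000130821.17, chromosome X from 153687926 to 153696588), which encodes the creatine transporter. Its control levels were 3.28, 43.9 and 3.71 at 6, 24 and 48 h, and its IL-6 levels 3.54, 40.1 and 13.96. The control level of 48 h was close to that of 6 h, while the IL-6 level stayed between those of 6 and 24 h. The control difference was -3.57 and the IL-6 difference -1.52, and the gene was not called over both agents (limma adjusted p = 0.0605). PNCK, a kinase gene that overlaps SLC6A8 on the opposite strand by 1085 bases, went the same way with -2.82 and -1.17. The library protocol does not keep the strand, so reads in the shared bases cannot be assigned to either gene.

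Genes of glycolysis and the hypoxia response were lower at 48 h in the controls. Of 23 list members past the filter, 3 were at least 2-fold lower and 0 higher, and 22 were negative. Their median was -0.44 in the controls and -0.16 in IL-6, after 0.41 from 6 to 24 h in the controls. Among all 7219 genes 0.457% were at least 2-fold lower and 4208 negative in the controls. ALDOC, the aldolase C gene, had control levels of 15.6, 103 and 24.5 and IL-6 levels of 100 and 53.6 at 24 and 48 h. Both 48 h libraries were below both 24 h libraries, by 2.07 and 0.90, without a call (limma adjusted p = 0.0772). BNIP3 (ENSG00000176171.12, chromosome 10 from 131967684 to 131981967), a mitochondrial protein of mitophagy, had no recovered level. Its centred values were -0.45, 1.04 and -1.02 in the controls and -0.67, 1.27 and -0.16 in IL-6 at 6, 24 and 48 h. BNIP3 fell by 1.75 ± 0.20 (limma adjusted p = 0.00684), with control and IL-6 differences of -2.06 and -1.43.

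P4HA1, a subunit of collagen prolyl hydroxylase, fell by 1.31 ± 0.17 (limma adjusted p = 0.0122), with control levels of 45.8 and 18.7 at 24 and 48 h. BNIP3 and P4HA1 were the only 2 of 30 tested members called by limma, and 0 were called without the IL-6 library of 24 h and 1 without the control library of 24 h. Without the IL-6 library of 48 h or either library of 6 h 5 were called, and 3 without the control library of 48 h. The other glycolytic enzyme genes lay nearer to 0, with LDHA at -0.68, ALDOA at -0.61, PKM at -0.54, ENO1 at -0.18 and PFKL at -0.08. VEGFA, the vascular growth factor gene and a target of the same factors, was the one member with a positive difference, at 0.12. NDUFA4L2, a target outside the list, was higher at 48 h, by 2.47 in the controls and 1.34 in IL-6. GBE1, the glycogen branching enzyme gene outside the list, fell by 1.22 ± 0.17 (limma adjusted p = 0.0140), with -1.45 in the controls.

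The promoters of BNIP3 and ALDOC are shown because both genes were over 4-fold lower in the controls. The capitals mark ACGTG on either strand, the core of the hypoxia response element. The letters CACGTG hold this core on both strands and also form an E-box.
BNIP3, chr10:131981924-131982173, minus strand: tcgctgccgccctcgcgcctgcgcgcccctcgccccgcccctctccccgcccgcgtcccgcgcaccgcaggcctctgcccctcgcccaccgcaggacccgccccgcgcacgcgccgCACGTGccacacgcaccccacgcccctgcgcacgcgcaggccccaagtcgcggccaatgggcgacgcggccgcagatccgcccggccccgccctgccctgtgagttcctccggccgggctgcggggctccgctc
ALDOC, chr17:28576896-28577145, minus strand: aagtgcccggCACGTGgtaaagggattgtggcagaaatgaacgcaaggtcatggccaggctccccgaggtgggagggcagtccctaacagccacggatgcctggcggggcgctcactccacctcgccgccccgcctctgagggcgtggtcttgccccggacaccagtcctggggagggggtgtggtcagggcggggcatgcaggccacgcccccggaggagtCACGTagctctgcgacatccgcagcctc
Of 19 members matched to a promoter 9 held the core (47.4%), as did 18.7% of all 27305 windows. They included GAPDH, LDHA, PGK1, P4HA1 and DDIT4.

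Mitotic genes were lower at 48 h than at 24 h, and S phase genes slightly higher. Of 27 mitotic genes past the filter, 27 were negative in the controls, from -1.38 for KIF20A to -0.18 for BUB1B, and 27 were negative in IL-6. Of all 7219 genes, 4208 were negative in the controls and 3636 in IL-6. The median of the mitotic genes was -0.71 in the controls and -0.59 in IL-6, after 0.98 from 6 to 24 h in the controls and 0.93 in IL-6. At least 2-fold lower were 5, namely KIF20A, HMMR, PTTG1, DLGAP5 and AURKA. Of 28 tested members limma called 12 lower and 0 higher. The count was 2 without the IL-6 library of 24 h, 4 without the control library of 24 h and between 10 and 14 without any one of the others.

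HMMR (ENSG00000072571.20, chromosome 5 from 163460203 to 163491941), which encodes a hyaluronan-binding protein of the spindle, had control levels of 33.4, 79.9 and 34.5 at 6, 24 and 48 h. Its IL-6 levels at 24 and 48 h were 77.6 and 33.1, so both agents showed the same peak. HMMR fell by 1.22 ± 0.14 (limma adjusted p = 0.00684). KIF20A, a kinesin gene of cytokinesis, fell by 1.13 ± 0.19 (limma adjusted p = 0.0227), from 61.0 to 23.4 in the controls. PTTG1, the securin gene, fell by 0.97 ± 0.14, and the cyclin genes CCNB1 and CCNB2 by 0.88 ± 0.13 each. AURKB, the chromosome passenger kinase gene, was an exception in its course, with 0.00 from 6 to 24 h and -0.42 from 24 to 48 h. KNSTRN, a kinetochore gene outside the list, fell by 1.01 ± 0.14 (limma adjusted p = 0.0140).

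The promoter of HMMR is shown as that of the mitotic gene with the smallest adjusted p. Capitals mark TTTGAA on either strand, the cell cycle genes homology region known to be bound by the DREAM and MuvB complexes.
HMMR, chr5:163460382-163460631, plus strand: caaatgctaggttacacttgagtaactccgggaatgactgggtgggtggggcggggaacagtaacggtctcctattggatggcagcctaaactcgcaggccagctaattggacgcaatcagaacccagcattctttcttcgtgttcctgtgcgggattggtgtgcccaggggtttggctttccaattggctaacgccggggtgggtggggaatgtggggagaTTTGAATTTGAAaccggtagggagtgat
Its 2 matches adjoin, beginning 28 and 22 bases before the start. Of 22 mitotic genes matched to a promoter 11 held the motif (50%), as did 13.6% of all 27305 windows. In BUB1B, CCNB2, PLK1, MKI67 and CENPA a match began within 30 bases of the start.

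Of 27 genes of DNA replication and S phase, 27 were positive in the controls, with a median of 0.34 after -0.52 from 6 to 24 h, and 19 were positive in IL-6. Among all 7219 genes 3011 were positive in the controls and 3583 in IL-6. The highest of the list were CDT1, a licensing factor gene, at 0.64, GINS2 at 0.63 and E2F1 at 0.57, and the lowest was TK1 at 0.02. No member reached 2-fold, and limma called 0 of 28 tested members (CDT1: limma adjusted p = 0.0931). These 2 lists thus stood on opposite sides of the median of all genes in the controls at both steps. The steps share the 24 h control library, so a departure of that 1 library would appear in both with opposite signs. The IL-6 libraries, which share none with the controls, gave medians of 0.93 and -0.59 for the mitotic and of -0.52 and 0.17 for the S phase list. The IL-6 steps likewise share the IL-6 library of 24 h. A condition common to both 24 h libraries was not tested.

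**Figure D4:**
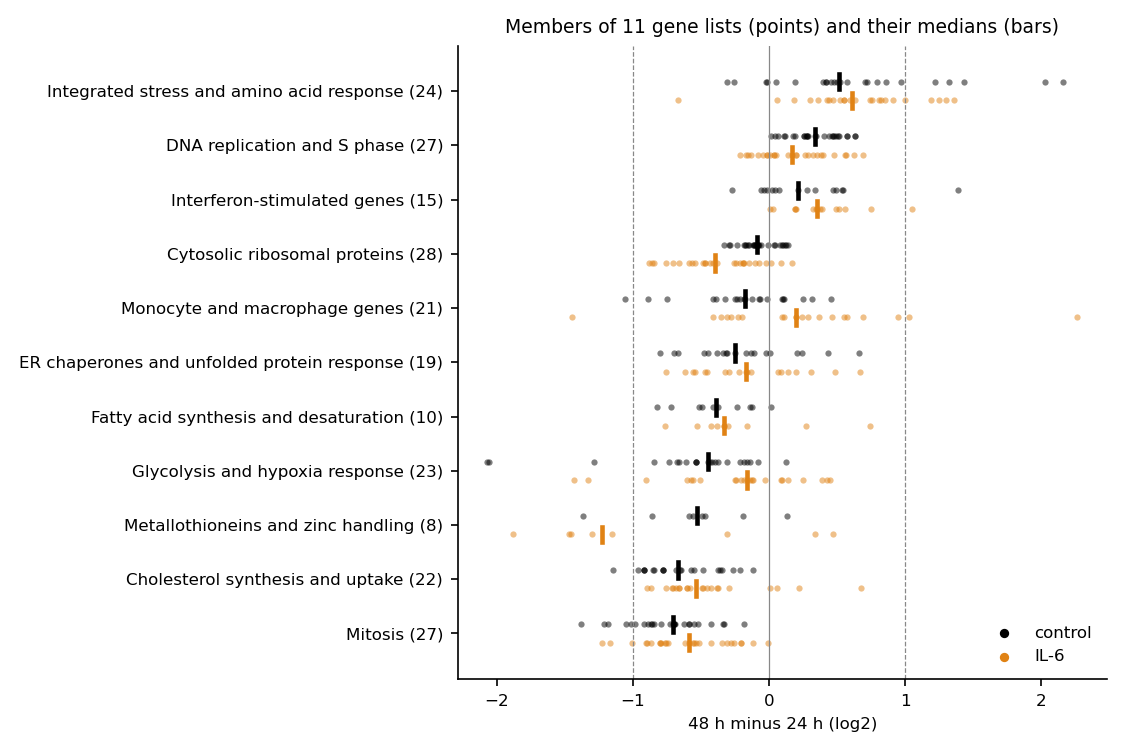
Log2 difference of 48 h minus 24 h for members of 11 gene lists past the level filter, in the control libraries (black) and the IL-6 libraries (orange), with the number of members in parentheses. Points are genes, vertical bars the medians and dashed lines 2-fold; control medians run from -0.71 for mitosis to 0.51 for the integrated stress and amino acid response.

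Genes of cholesterol synthesis and uptake were lower at 48 h. Of 22 past the filter 22 were negative in the controls and 18 in IL-6, with medians of -0.67 and -0.54. From 6 to 24 h their median had been 1.05 in the controls and 1.28 in IL-6. Among all 7219 genes 4208 were negative from 24 to 48 h in the controls and 3636 in IL-6. LSS (ENSG00000160285.15, chromosome 21 from 46188141 to 46228824), lanosterol synthase, had control levels of 27.5, 82.2 and 37.2 and IL-6 levels of 75.4 and 40.5 at 24 and 48 h. LSS was the one member past 2-fold and fell by 1.02 ± 0.14 (limma adjusted p = 0.0144). Of 23 tested members limma called 5 lower, LSS, IDI1, MSMO1, FDPS and INSIG1, and 0 higher. None of the 5 was called without the IL-6 library of 24 h or without the control library of 24 h, while 13 members were called without either library of 6 h and 8 without the IL-6 library of 48 h.

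HMGCS1, the gene of cytosolic HMG-CoA synthase, was 0.92 lower in the controls and 0.48 in IL-6, without a call. SREBF2, the gene of the transcription factor SREBP2, was -0.21 in the controls and 0.68 in IL-6. The sterol regulatory element TCACNCCAC was found on either strand in 1 of 16 matched promoters of the list (6.25%), that of SREBF2, and in 0.875% of all windows. Genes of fatty acid synthesis and desaturation had a median of -0.39 over 10 members, led by FADS2 at -0.82 and SCD, stearoyl-CoA desaturase, at -0.72. None of these 10 was called. ACSS2, the acetyl-CoA synthetase gene outside both lists, was 1.15 lower in the controls and 0.42 in IL-6 (limma adjusted p = 0.254).

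Of the metallothionein genes, whose small proteins bind zinc and copper, MT2A, MT1F, MT1G and MT1X fell. The list of metallothionein and zinc handling genes had 8 members past the filter. In the controls 7 were negative and 1 was at least 2-fold lower, with a median of -0.53. In IL-6 6 were negative and 5 at least 2-fold lower, with a median of -1.22. Among all 7219 genes 0.457% were at least 2-fold lower in the controls and 1.34% in IL-6. MT2A (ENSG00000125148.7, chromosome 16 from 56608584 to 56609497) had centred values of 0.31, 0.59 and -0.78 in the controls and 0.25, 0.75 and -1.13 in IL-6 at 6, 24 and 48 h. The 2 libraries of 48 h were the lowest of the 6, and MT2A fell by 1.62 ± 0.15, with the smallest adjusted p of all tested genes (limma adjusted p = 0.00206). MT1F fell by 1.01 ± 0.13, MT1G by 1.03 ± 0.18 and MT1X by 1.01 ± 0.19. For MT1G and MT1X the call was lost with equal library medians, and of the 4 called members of the list 1 was left without the IL-6 library of 24 h and 2 without that of 48 h. The control differences of these 4 genes lay between -1.37 and -0.56 and the IL-6 differences between -1.88 and -1.15. Metallothionein genes are near-identical copies, and reads may be split among them.

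LYZ (ENSG00000090382.7, chromosome 12 from 69348381 to 69354234), the lysozyme gene of monocytes, was the one of the 51 genes that was lower at both control steps by at least 0.5. Its centred control values were 0.84, 0.31 and -0.75, its IL-6 values 0.70, 0.18 and -1.27, and it fell by 1.25 ± 0.14 (limma adjusted p = 0.00684). An antisense long non-coding gene overlaps it by 733 bases. Of 21 monocyte and macrophage genes past the filter LYZ was the only one past 2-fold in the controls. The list's median was -0.17 in the controls and 0.20 in IL-6. S100A12, S100A8 and S100A9, the calgranulin genes, stood at -0.89, -0.75 and -0.41 in the controls, while ITGAX (CD11c) stood at 0.45 and FCGR1A at 0.32. CD14, the lipopolysaccharide co-receptor gene, stood at 0.25 in the controls and 2.27 in IL-6.

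Some genes at least 2-fold lower were late, meaning that 24 h and 6 h differed by under 0.5. GPR183, an oxysterol receptor gene of immune cell migration, had control levels of 19.3, 25.0 and 9.90 and fell by 1.20 ± 0.19 (limma adjusted p = 0.0178). All its 12861 bases lie within UBAC2 on the opposite strand, which stood at -0.12 in the controls. As the library keeps no strand, reads in the shared bases cannot be assigned to either gene. VIM, the vimentin gene, had control levels of 32.5, 41.5 and 16.5 and was not called (limma adjusted p = 0.0958), and an antisense gene overlaps it. ARRDC3, an arrestin family gene, went from 23.2 to 9.01. S100A10, which pairs with annexin A2, was 1.04 lower. BCL2L2-PABPN1, which was not late, fell by 1.57 ± 0.21, but this readthrough gene shares its bases with BCL2L2 and PABPN1, whose own control differences were 0.17 and 0.19, so its value is uncertain. ER chaperone genes had a median of -0.25, and HSP90B1 was the one of 20 called, with a fall of 0.71 ± 0.13 (limma adjusted p = 0.0288). Histone mRNAs mostly lack the poly(A) tail on which the library is primed. Of 19 replication-dependent histone genes tested, H4C3 fell by 1.03 ± 0.15 and H2BC9 by 1.08 ± 0.16.

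The 51 genes followed different courses from 6 h on. Returned means that 48 h and 6 h differed by under 0.5, late that 24 h and 6 h differed by under 0.5, and continued that the step before 24 h had the same sign and was at least 0.5. Of the 33 lower genes 15 had returned, 10 had returned in part or gone below, 7 were late and 1 (LYZ) continued. Of the 33, 32 were higher at 24 h than at 6 h in the controls and 22 were at least 2-fold higher. The lower genes that returned included SLC6A8, GBE1, SPP1, KIF20A, P4HA1, HMMR and LSS. The 15 had a median of 1.28 from 6 to 24 h and -1.21 from 24 to 48 h in the controls. Because the 24 h control library enters both steps, this count is a description. In IL-6, 31 of the 33 were higher at 24 h than at 6 h. The 15 returned genes had IL-6 medians of 1.37 and -0.87, from libraries not shared with the controls. These IL-6 steps also share their 24 h library.

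Of the 18 higher genes 0 had returned. The 8 that continued included CHAC1, TNF, SESN2, PSAT1 and PHGDH, with a median of 0.97 from 6 to 24 h and 1.34 from 24 to 48 h in the controls. The 7 late ones were NDUFA4L2, ASNS, MX1, GP9, EIF4EBP1, BATF3 and SLC31A1, and all 18 stood above their 6 h value at 48 h in the controls. Of the 18, 11 were already higher at 24 h than at 6 h in the controls and 16 in IL-6. ASNS is an example, with 0.33 from 6 to 24 h in the controls and 1.58 in IL-6. With equal library medians, which admit other genes, 6 of 23 higher genes had returned.

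**Figure D5:**
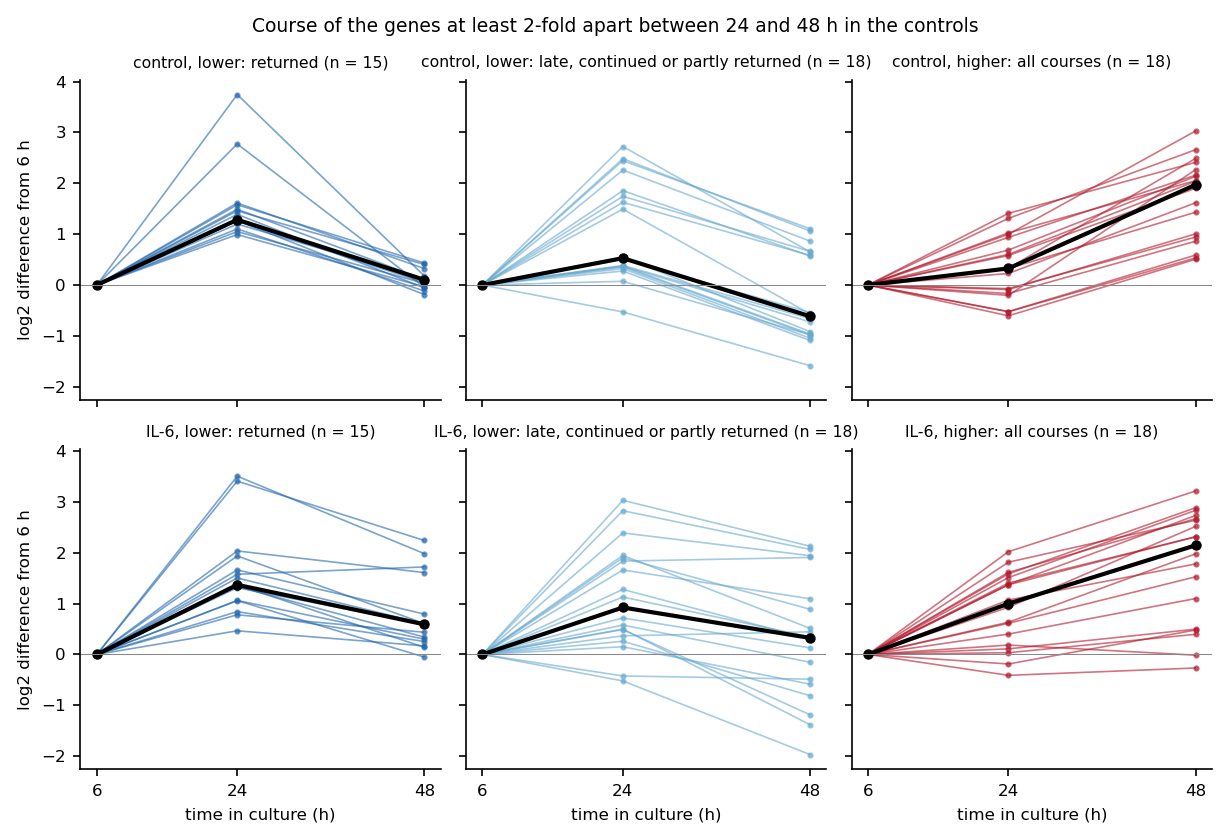
Log2 difference from the 6 h library of the same agent (y axis) against time in culture in hours (x axis) for the 51 genes at least 2-fold apart between 24 and 48 h in the controls, in the control libraries (top) and the IL-6 libraries (bottom). Thin lines are genes and thick lines medians; the 15 lower genes that returned had a control median of 1.28 at 24 h and 0.10 at 48 h.

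A few genes differed in direction between the agents. SPP1, the osteopontin gene, had control levels of 17.5, 45.9 and 16.9 and IL-6 levels of 47.4 and 52.3 at 24 and 48 h. The control level of 48 h had come back to that of 6 h while the IL-6 level had not, with differences of -1.44 and 0.14. BHLHE40, a clock and hypoxia-related repressor gene, showed -1.40 and 0.07. With 1 library per condition these gaps could not be tested.

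At levels of 1 to 10, under the filter, 10.7% of 4187 genes were at least 2-fold apart in the controls, so single values there carry little weight. Most of the higher genes counted above had a 24 h control level in that range. Members of the lists above at such levels, named after their values were seen, included the 3 amino acid response genes in that range. STC2, stanniocalcin 2, went from a level of 0.31 to 2.46, the cystine transporter gene SLC7A11 from 0.42 to 2.99 and CTH, cystathionine gamma-lyase, from 1.94 to 3.33. All 3 were also higher in IL-6, by 2.02, 0.99 and 1.05. Of 7 glycolysis and hypoxia genes at these levels 4 were at least 2-fold lower, PFKFB4, PDK1, ANKRD37 and HK2, with control differences between -2.70 and -1.01. Of 17 interferon-stimulated genes at these levels 3 were at least 2-fold higher and 0 lower, with a control median of 0.16. The member IFIT3 went from a level of 0.52 to 3.87, with 2.90 in the controls and 0.39 in IL-6. Of 6 immediate early genes 2 were at least 2-fold higher and 0 lower. NR4A1, a member of that list, stood at 2.03 in the controls and 2.34 in IL-6.

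Most other lists lay near the median of all genes. Housekeeping genes had a median of -0.07 over 24 members, cytosolic ribosomal proteins -0.09 over 28, nuclear oxidative phosphorylation genes -0.10 over 26, mitochondrially encoded genes -0.03 over 13 and MYC and ribosome biogenesis genes 0.01 over 22. None of these members was at least 2-fold apart or called by limma. In IL-6 the medians were -0.40 for the ribosomal protein, -0.35 for the nuclear oxidative phosphorylation and -0.38 for the mitochondrially encoded genes. The control median of the last changed sign to 0.02 with equal library medians. STAT3 targets and IL-6 feedback genes had a median of -0.03 in the controls and 0.19 in IL-6, and NF-kB genes 0.13 and 0.37. With equal library medians the control median of the STAT3 targets was 0.03.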

How the data were processed

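RNA-seq values of 6 THP-1 libraries were used. Per the labels' protocols, cDNA was made from total RNA with SMART-seq v4, which primes on poly(A) and keeps no strand, and libraries with Nextera XT. The build was GRCh38 (hg38) per the submitters' processing notes. How the reads were aligned, counted and scaled is not given in the sources used here. The deposited values are log2 processed signals per the file headers, which the authors centred on each gene, with a mean of 0 over the libraries with a value.

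From these, levels were recovered as whole multiples of a step of 0.001 after removal of 1 scaling factor per library, with a floor of 0.01. Tested on simulated data of 16000 rows, 14812 levels came out right, 260 wrong and 928 unrecovered, none of the last below 100. Of 2000 decoy genes with shifted values 45 were matched by accident. No read counts can be had from these files, so no interval for counting error is given.

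Differences of 2 libraries were counted at 2-fold where the control libraries of 24 and 48 h averaged a level of 10 or more, with no test, as there was 1 library a side. limma 3.58.1 in R 4.3.3 (time point and agent, robust empirical Bayes, variance trend on level, level of at least 1 or not recovered, Benjamini-Hochberg over 11344 genes) gave adjusted p-values over both agents. On simulated data with 200 changed genes, it recovered 50 of 100 changed by 1 and 91 of 100 changed by 2 on the log2 scale, and 7 of 148 called genes were unchanged. The simulated noise was normal with a spread that followed level, and each change was equal in both agents. The simulation thus met the assumptions of the model and cannot show its error rate where the agents differ. The comparison and the 39 gene lists (748 symbols, 657 with 6 values) were chosen with earlier results of these data known. Named genes were the 15 highest and lowest in the controls, up to 3 highest and lowest and any 2-fold member of each list, the 10 furthest of each course, the 10 smallest adjusted p each way and the 10 largest gaps between agents, and others where the text says so or names a list's counted members. Promoter windows are RefSeq's, with motifs searched on both strands. Alternatives were the scaling, level filter, pseudocount, fold, gene types, variance model and window, and leaving out each library was added after seeing the data. The IL-6 effect itself was not analysed here, and some genes are not reported here. Scripts used Python 3.11.15 with pandas 2.3.3.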

Additional observations from a re-analysis of the deposited data

Results flagged for a closer look

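Genes reported here with opposite differences of 48 h minus 24 h in the control and IL-6 libraries are listed where the control difference was at least 2-fold or the gap was among the 10 largest. None of these gaps could be tested, as each condition had 1 library. SPP1 stood at -1.44 in the controls and 0.14 in IL-6, and BHLHE40 at -1.40 and 0.07. C6orf226 stood at -1.10 and 0.08. PTGS1, the cyclooxygenase 1 gene, stood at -0.86 and 0.98, and the elongation factor gene ELL at -0.51 and 1.10. BSDC1 stood at -0.45 and 1.41. In the other direction R3HDM1 stood at 0.16 and -1.78 and MORN2 at 0.49 and -1.13. C18orf32, which shares its bases with the readthrough gene RPL17-C18orf32, stood at 0.90 and -1.75. PEMT, phosphatidylethanolamine N-methyltransferase, stood at 1.11 and -0.20.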

How the results depend on the processing

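The counts of genes past 2-fold (18 higher, 33 lower) depended on the level filter and the fold: 573 and 600 with no level filter, 4 and 20 at a level of at least 30, and 117 and 230 at 1.5-fold. Calls by limma (18 higher, 46 lower) became 0 and 0 with no variance trend, 43 and 104 at a level of at least 10 and 101 and 191 without both 6 h libraries, and 70 lower with a pseudocount of 1. Leaving out 1 library gave 6 to 102 higher and 6 to 319 lower. Of the courses, with equal library medians 6 of 23 higher genes had returned and 1 had returned in part. At a level of at least 30, 2 higher genes continued, 2 were late and 0 returned in part, and 3 lower genes were late and 4 returned in part. With a window of 0.3, 2 lower genes were late and 18 returned in part. The cause was not tested, except that filters and folds change which genes are counted. List medians moved by under 0.1 with equal library medians and at a level of at least 1. With equal library medians 6 control medians near 0 changed sign, those of mitochondrially encoded genes (-0.03 to 0.02), NRF2 and oxidative stress (-0.04 to 0.02), MHC class I (-0.02 to 0.04), myeloid transcription factors (-0.05 to 0.01), NADPH oxidase (-0.04 to 0.02) and STAT3 targets (-0.03 to 0.03). With a pseudocount of 1, 13 of 30 single genes moved. No paired analysis was possible because the labels give no replicate numbers to use as a block. The agent is a term of the limma model, which therefore compares times within each agent.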
